A study of Mus musculus with 24 samples.

Results

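Messenger RNA of 5 chemokine receptors, *Ccr1*, *Ccr2*, *Cx3cr1*, *Cxcr4* and *Ccrl2*, was measured in monocytes sorted from peripheral blood (PB), in 24 RNA-sequencing libraries. The genes were taken by name from a table of 53715 genes, and all 5 were among the 11230 genes tested, which reached 50 in 1 library or more. The study asked how loss of the receptor Notch2 alters blood monocytes during acute inflammation. Mice were on a C57BL/6 background and 8 to 10 weeks old. In N2ΔMy mice, Cre expressed from the *Lyz2* locus, which is active in myeloid cells including neutrophils and macrophages, deleted a floxed *Notch2* allele, and wt mice served as controls. Whether these controls carried Cre or a floxed allele is not given in the sources used here. IMQ mice received 50 mg per day of Aldara, a cream with 5% imiquimod, a TLR7 agonist, on depilated skin, Sham mice received Vaseline, and cells were sorted on day 5. The methods call the controls of this experiment untreated, while the labels call them Sham, the name used here. There were 6 groups of 4 libraries, namely Ly6Chi cells of each genotype after Sham, Ly6Chi cells of each genotype after IMQ, and Ly6Clo cells of each genotype after IMQ, with no Ly6Clo cells after Sham. The design text calls the 4 libraries of a group biological replicates and does not say whether each came from 1 mouse. Cells were gated on GFP expressed from the *Cx3cr1* locus, so every group carried a reporter allele that replaces part of the *Cx3cr1* coding sequence, and *Cx3cr1* activity was a condition of entering any library. The study lists the reporter line as heterozygous, without naming the mice of these libraries.

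Chemokine receptors are G protein-coupled receptors of the cell surface that steer leukocytes along gradients of chemokines. CCR2, the receptor of CCL2 and CCL7, is required for Ly6Chi monocytes to leave the bone marrow and enter inflamed tissue, whereas CX3CR1, the receptor of fractalkine, marks Ly6Clo monocytes that patrol vessels and supports their survival. CCR1 binds inflammatory chemokines such as CCL3, CCL6 and CCL9, CXCR4 binds CXCL12 and retains cells in the marrow, and CCRL2 is an atypical receptor that binds chemerin without signalling through G proteins.

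Values are normalized counts, which the authors obtained with DESeq2 and rounded to whole numbers. They summed to between 13273508 and 14651770 per library, and the reads behind them, inferred from which whole numbers occur, numbered between 9524061 and 19756688. By their numbers in the labels, the libraries form 2 series, replicates 1 and 2 belonging to the first and replicates 3 and 4 to the second, and the second was sequenced less deeply (9524061 to 15591633 against 14573783 to 19756688 inferred reads). *Notch2*, the targeted gene, was at 60.5% of the wt level in N2ΔMy Ly6Clo cells, 54.8% in Ly6Chi cells after IMQ and 61.1% in Ly6Chi cells after Sham, with no overlap between genotypes. *Ly6c2*, which encodes part of the sorted antigen, lay between 12 and 382 in the 8 Ly6Clo libraries and between 2370 and 9161 in the 16 Ly6Chi libraries. Of 7 markers of T and NK cells, 0 passed the filter, with sums between 0 and 64 and with *Cd3e* and *Cd3g* at 0 in all 24 libraries, and the sum of 6 B cell markers lay between 808 and 3872, with 2 of the 6 past the filter and 0 called in any comparison by limma. Because sorted cells were measured in bulk, fewer cells with a transcript and less of it per cell cannot be told apart.

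Of the 5 genes, 4 lie on mouse chromosome 9 and *Cxcr4* lies on chromosome 1. In the coordinates of the deposited table (GRCm38), *Ccr1* (ENSMUSG00000025804.5) spans chr9:123962124-123968692 on the minus strand and *Ccr2* (ENSMUSG00000049103.14) spans chr9:124101950-124113557 on the plus strand. *Cx3cr1* (ENSMUSG00000052336.7) spans chr9:119901616-120069879, *Ccrl2* (ENSMUSG00000043953.12) chr9:111054486-111057519 and *Cxcr4* (ENSMUSG00000045382.6) chr1:128588199-128592293, all on the minus strand. Reads were 75 bases long, and 78 of the 6734 windows of that length in *Ccr2* transcripts (1.16%) also occur in another gene, whereas *Ccr1*, *Cxcr4* and *Ccrl2* share none with another gene. *Cx3cr1* shares 78 exonic bases with the opposite-strand gene RP24-233B16.6 (24 to 186 normalized counts), and the strand setting of the counting is not given in the sources used here.

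The stretches before the start sites of *Ccr1* and *Cxcr4* are shown because the first gene differed between groups and the second was not found to differ in the F-test given below, and because they differ in composition. Both are the 250 bases before the RefSeq start (GRCm38.p6), 5′ to 3′ on the minus strand, with CG dinucleotides in capitals. The third sequence is a window before the RefSeq start of *Cx3cr1*, with a match to the core motif of RBPJ, the DNA-binding partner of Notch, in capitals.
Ccr1, chr9:123968693-123968942: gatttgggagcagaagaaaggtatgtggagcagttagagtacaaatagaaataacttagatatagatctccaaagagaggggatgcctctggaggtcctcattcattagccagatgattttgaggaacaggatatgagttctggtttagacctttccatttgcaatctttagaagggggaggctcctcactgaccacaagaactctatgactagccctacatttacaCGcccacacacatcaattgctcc
Cxcr4, chr1:128592300-128592549: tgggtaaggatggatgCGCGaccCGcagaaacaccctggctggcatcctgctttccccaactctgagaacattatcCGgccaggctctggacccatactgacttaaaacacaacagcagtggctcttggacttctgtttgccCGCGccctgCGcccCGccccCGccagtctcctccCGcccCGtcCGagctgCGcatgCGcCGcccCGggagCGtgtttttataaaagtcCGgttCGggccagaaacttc
Cx3cr1, chr9:120068393-120068422: gcggtcagctggTTCCCAgcctggagcgtt
The *Ccr1* stretch holds 1 CG and 43.6% GC, the *Cxcr4* stretch 19 CG and 61.2% GC, and the median of all 32851 RefSeq promoters is 6 CG and 52.4% GC. Among the other genes, *Ccr2* and *Cx3cr1*, which differed in the F-test, hold 1 CG and 37.2% GC, and 4 CG and 53.6% GC. *Ccrl2*, which was not found to differ, holds 5 to 7 CG and 50.8% to 54.0% GC over its 3 starts. A relation of composition to the differences was not tested. The letters TGGGAA, searched on both strands, occur once among the 5 genes' stretches, on the reverse strand of *Cx3cr1* at position -114, and in 21.59% of all promoters. In a GENCODE release later than that of the authors, this match lies in a noncoding first exon of a longer *Cx3cr1* transcript. AAAGGTCA, the motif of NR4A factors, is found before none of the 5 genes and in 1.34% of all promoters. A match is a description of the letters and was not tested as a site.

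*Ccr1*, *Ccr2* and *Cx3cr1* differed over the 6 groups, and *Cxcr4* and *Ccrl2* were not found to differ. In a limma F-test over the 24 libraries, the adjusted p was 1.71e-14 for *Ccr2*, 6.54e-12 for *Ccr1*, 2.76e-04 for *Cx3cr1*, 0.960 for *Ccrl2* and 0.992 for *Cxcr4*. Of all genes tested, 43% passed this test at the threshold of 0.01. The call of *Cx3cr1* was lost when replicate 1 was left out of every group (adjusted p 0.0115, limma), and those of *Ccr1* and *Ccr2* held without any of the 4 replicates.

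**Figure D1:**
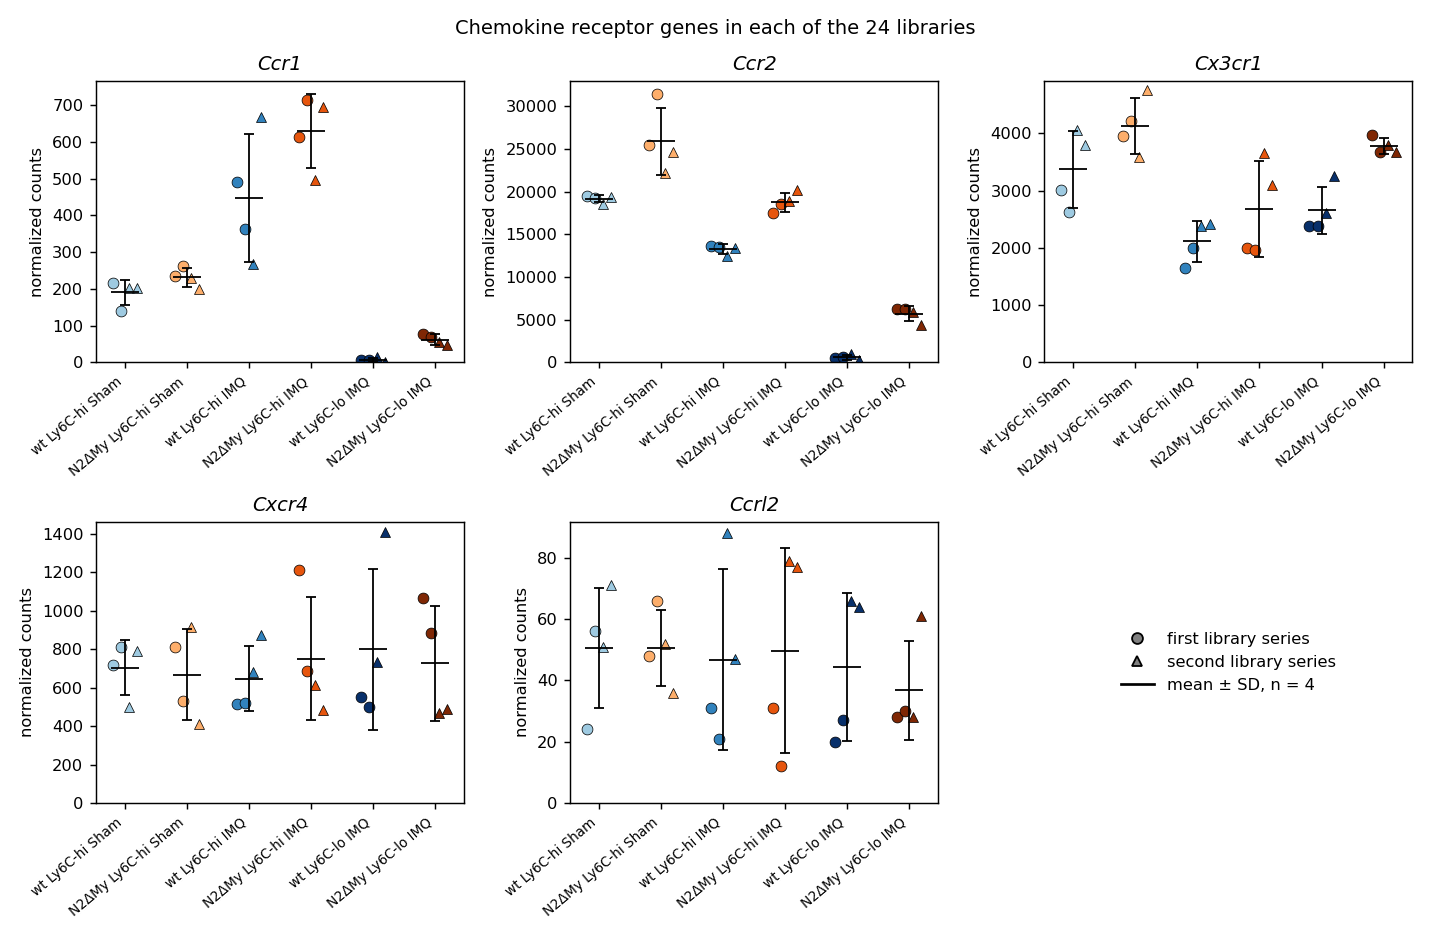
Normalized counts (vertical axes, starting at 0) of the 5 receptor genes in each of the 24 libraries, by group on the horizontal axis. Circles are the first and triangles the second library series, and lines are the mean ± SD of 4 libraries. *Ccr1* and *Ccr2* are lowest in wt Ly6Clo cells, while the groups of *Cxcr4* and *Ccrl2* overlap throughout.

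Comparisons of 2 groups were made with limma on log2(value + 1), and a call required that the p adjusted after Benjamini and Hochberg did not exceed 0.05 and that the log2 fold change reached 0.6 in either direction. After IMQ in wt Ly6Chi cells, *Ccr1* was called higher and *Cx3cr1* lower, 2 of 5 against 9.49% of all genes tested (4.43% higher and 5.07% lower), and 3 of 5 did not overlap with Sham, against 21.5%. The same 2 genes were called in N2ΔMy Ly6Chi cells, against 8.7% of all genes (4.15% higher and 4.55% lower), and 2 of 5 did not overlap, against 19.5%. In Ly6Clo against Ly6Chi cells after IMQ, *Ccr1* and *Ccr2* were called lower in wt, against 24.6% of all genes (11.9% higher and 12.7% lower), and again in N2ΔMy, against 17.4% (9.01% higher and 8.38% lower). There, 2 of 5 did not overlap in wt (35.4% of all genes) and 3 of 5 in N2ΔMy (27.8%). In N2ΔMy against wt Ly6Clo cells, *Ccr1* and *Ccr2* were called higher, against 4.78% of all genes (3.12% higher and 1.67% lower). These were 537 genes, and 939 when the replicate number entered the fit as a block. Here 3 of 5 did not overlap, against 12.8%. Between genotypes in Ly6Chi cells, none of the 5 was called after IMQ or after Sham by limma, where 0.0267% and 0.0178% of all genes were called (3 genes, 0.0178% higher and 0.0089% lower, and 2 genes, 0.0089% in each direction) and 679 and 585 genes had an unadjusted p under 0.05. With the block, 54 genes were called after IMQ, none of the 5 among them. *Ccr2* alone did not overlap between genotypes in these 2 comparisons, against 3.84% of all genes after IMQ and 3.15% after Sham.

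**Figure D2:**
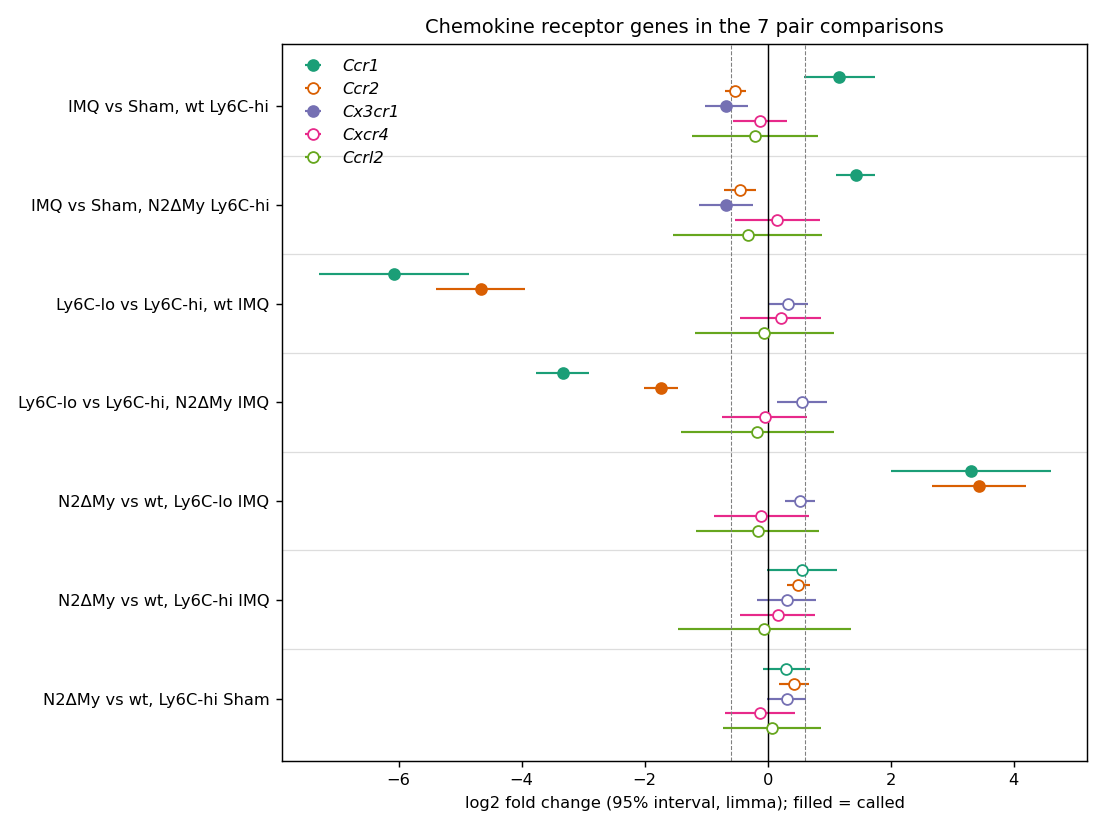
Log2 fold change of each receptor gene (horizontal axis, on log2(value + 1)) in the 7 comparisons of 2 groups, with 95% intervals from limma and dashed lines at 0.6 in both directions. Filled points were called. The intervals of *Ccr1* and *Ccr2* lie far below 0 in Ly6Clo against Ly6Chi cells and far above 0 in N2ΔMy against wt Ly6Clo cells, and those of *Cxcr4* and *Ccrl2* include 0 in every row.

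*Ccr2*, the receptor for egress from the marrow, was abundant in all Ly6Chi libraries and low in wt Ly6Clo cells. After Sham, wt Ly6Chi libraries 1 to 4 held 19471, 19284, 18528 and 19405 normalized counts (19172 ± 436, mean ± SD, n = 4), and those of N2ΔMy held 25496, 31411, 22178 and 24602 (25922 ± 3919). After IMQ, the wt libraries held 13680, 13501, 12476 and 13440 (13274 ± 542) and the N2ΔMy libraries 17456, 18536, 18924 and 20176 (18773 ± 1123). Every IMQ library was thus below every Sham library of its genotype, and every N2ΔMy library was above every wt library of the same treatment. The log2 fold change of IMQ against Sham was -0.53 (SE 0.077, adjusted p 0.00116, limma) in wt and -0.46 (SE 0.12, adjusted p 0.0275) in N2ΔMy, both short of the fold required for a call. Within the first and second library series these were -0.51 and -0.55 in wt and -0.65 and -0.26 in N2ΔMy. The ratio of N2ΔMy to wt means was 1.41 after IMQ and 1.35 after Sham, with log2 fold changes of 0.50 (SE 0.084, adjusted p 0.196, limma, 0.0127 with the block) and 0.42 (SE 0.11, adjusted p 0.879). Sums of 8 macrophage markers lay between 3011 and 4064 in wt and 4769 and 6333 in N2ΔMy after IMQ. Those of 7 Ly6Clo monocyte markers lay between 31931 and 35201 and between 21831 and 27515 after Sham. Each sum overlapped between genotypes under the other treatment, and 0 of these markers were called by limma. Their part in the *Ccr2* difference was not tested.

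In Ly6Clo cells after IMQ, *Ccr2* was at 482, 641, 991 and 241 normalized counts in wt (589 ± 315) and at 6279, 6281, 5879 and 4393 in N2ΔMy (5708 ± 897). All 4 N2ΔMy libraries lay above all wt libraries, and below all Ly6Chi libraries of either genotype. The N2ΔMy mean was 9.70 times the wt mean (log2 fold change 3.44, SE 0.34, adjusted p 3.23e-04, limma), with 3.50 and 3.37 within the 2 series. Relative to Ly6Chi cells of the same genotype, *Ccr2* fell to 4.44% in wt (log2 fold change -4.67, SE 0.33, adjusted p 2.31e-06) and to 30.4% in N2ΔMy (-1.73, SE 0.13, adjusted p 3.88e-06, limma). The difference of the genotype effect between Ly6Clo and Ly6Chi cells was 2.94 on the log2 scale (SE 0.39, adjusted p 6.43e-04, limma interaction over 16 libraries), a test that called 1.03% of all genes, 0.971% higher and 0.0623% lower (116 genes, and 271 with the block). For *Ccr2* it came to 3.09 within the first series and 2.78 within the second, where 8 libraries remained and the call was lost (adjusted p 0.238, against 4.55e-06 to 0.238 over the alternatives). The order of the means was N2ΔMy Sham, wt Sham, N2ΔMy IMQ and wt IMQ in Ly6Chi cells, then N2ΔMy and wt Ly6Clo cells, and only wt Sham and N2ΔMy IMQ overlapped as neighbours.

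*Ccr1*, the receptor of inflammatory CC chemokines, rose with IMQ in Ly6Chi cells of both genotypes. In wt Ly6Chi cells it was at 216, 140, 203 and 201 normalized counts after Sham (190.0 ± 34.0) and at 491, 362, 267 and 667 after IMQ (447 ± 173). In N2ΔMy Ly6Chi cells it was at 235, 263, 229 and 200 after Sham (232 ± 25.8) and at 613, 715, 495 and 694 after IMQ (629 ± 99.7). No IMQ library overlapped with a Sham library, and the wt IMQ libraries were the most spread, with replicates 3 and 4 at the ends. The IMQ mean was 2.35 times the Sham mean in wt (log2 fold change 1.17, SE 0.26, adjusted p 0.0120, limma) and 2.72 times in N2ΔMy (1.43, SE 0.14, adjusted p 2.35e-04). In wt the call was lost within the second series (1.06) and when genes with low values were also tested (1.17, adjusted p 0.106), with adjusted p-values between 8.77e-04 and 0.136 over the alternatives. Genotypes overlapped in Ly6Chi cells, with log2 fold changes of 0.56 after IMQ (SE 0.25, adjusted p 0.823, limma) and 0.30 after Sham (SE 0.17, adjusted p 0.937).

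Markers of neutrophils, cells that can also carry CCR1 and that the sort was set to remove by Ly6G in its lineage gate and by requiring CD115, had a higher summed level after IMQ in the Ly6Chi libraries. The summed level of 11 neutrophil markers lay between 9 and 26 in wt and 5 and 65 in N2ΔMy Ly6Chi libraries after Sham, and between 1230 and 4977 in wt and 971 and 5271 in N2ΔMy after IMQ. Only 2 of the 11 reached 50 in an IMQ Ly6Chi library, and *Ly6g*, a defining marker, was at 0 in all of them. The part of these transcripts in the *Ccr1* difference was not tested.

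In Ly6Clo cells *Ccr1* was near the limit of detection in wt, at 7, 5, 15 and 1 normalized counts (7.0 ± 5.9), and was at 77, 70, 55 and 46 in N2ΔMy (62.0 ± 14.1). The genotypes did not overlap, and all 8 libraries were below every Ly6Chi library. The N2ΔMy mean was 8.86 times the wt mean (log2 fold change 3.30, SE 0.59, adjusted p 0.00765, limma). Without wt replicate 3 it was 14.3 times the wt mean, and leaving out 1 library at a time gave log2 fold changes between 2.75 and 3.75, all called. This value depended on the pseudocount, being 2.12 with 10 in place of 1, and the call was lost with no filter on low values (adjusted p 0.0865) and within the second series (0.165), over a range from 2.36e-06 to 0.165. Against Ly6Chi cells of the same genotype, *Ccr1* fell to 1.57% in wt (0.970% without Ly6Clo replicate 3, log2 fold change -6.08, SE 0.56, adjusted p 1.37e-05, limma, and -4.73 with a pseudocount of 10) and to 9.85% in N2ΔMy (-3.34, SE 0.20, adjusted p 1.10e-06). The difference of the genotype effects between subsets was 2.74 (SE 0.63, adjusted p 0.0468, limma), and this call was lost in 13 of the 16 fits that left out 1 library, with differences between 2.19 and 3.19 and adjusted p-values up to 0.0997. It was kept without wt Ly6Chi replicate 3, wt Ly6Clo replicate 3 or wt Ly6Clo replicate 4. With a pseudocount of 10 the difference was 1.57 and not called (adjusted p 0.0623, over a range from 0.00360 to 0.591).

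**Figure D3:**
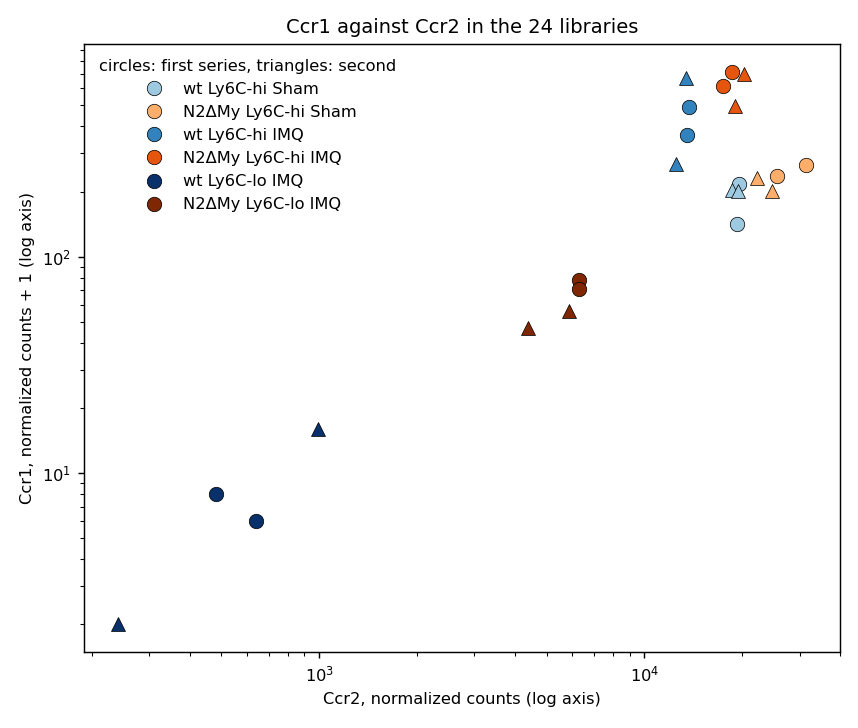
*Ccr1* (normalized counts + 1, vertical log axis) against *Ccr2* (normalized counts, horizontal log axis) in the 24 libraries, with circles for the first and triangles for the second series. wt Ly6Clo libraries lie at the lower left, N2ΔMy Ly6Clo libraries between them and the Ly6Chi libraries, and within Ly6Chi cells the IMQ libraries lie higher on *Ccr1* and lower on *Ccr2* than the Sham libraries of their genotype.

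*Ccr1* and *Ccr2* were both lower in Ly6Clo than in Ly6Chi cells, and their IMQ libraries differed from Sham in opposite directions. Per kilobase of exon, the *Ccr2* level was 43.6 ± 9.52 times the *Ccr1* level in wt and 46.9 ± 4.95 times in N2ΔMy Ly6Chi libraries after Sham. After IMQ this ratio was 13.8 ± 4.83 in wt and 12.8 ± 2.25 in N2ΔMy Ly6Chi libraries, with no overlap with Sham. It was 39.1 ± 4.46 in N2ΔMy Ly6Clo libraries, and in wt Ly6Clo libraries, where *Ccr1* was near 0, it ranged from 27.7 to 101.

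Markers of monocyte subsets and macrophages also differed between the genotypes in Ly6Clo cells, where 3.12% of all genes were called higher and 1.67% lower. The summed level of 6 Ly6Chi monocyte markers lay between 1281 and 3256 in wt and between 5052 and 7704 in N2ΔMy Ly6Clo libraries, and 4 of the 6 were called higher. The sum of 7 Ly6Clo monocyte markers lay between 147176 and 169745 in wt and between 85242 and 101732 in N2ΔMy, and 4 of the 7 were called lower (*Nr4a1*, *Ace*, *Itgal* and *Spn*), 1 higher (*Cd36*, which encodes a scavenger receptor, log2 fold change 1.83, SE 0.37, adjusted p 0.0141, limma) and 2 not called. The study itself places *Cd36* with the genes of mature phagocytes, among those it found higher in N2ΔMy Ly6Clo cells. For 8 macrophage markers the sum lay between 4725 and 6691 in wt and between 11276 and 14882 in N2ΔMy, with 6 of 8 called higher and 0 lower. All 8 reached 50 in an N2ΔMy Ly6Clo library, against 3 in wt Ly6Clo libraries and 3 or 4 in each Ly6Chi group. Some of these calls can therefore rest on genes that passed the filter through the N2ΔMy Ly6Clo libraries. *Ly6c2* was at 0.915% of the Ly6Chi level in wt Ly6Clo cells and 2.64% in N2ΔMy, where replicate 3 stood apart with 382 against 51, 46 and 58 in the others. Without replicate 3 of the Ly6Clo libraries these levels were 0.523% in wt and 1.02% in N2ΔMy. Its difference between genotypes was not called in the unblocked fit (log2 fold change 1.47, SE 0.75, adjusted p 0.319, limma) and was called with the replicate block (adjusted p 0.00760). In N2ΔMy replicate 3, *Ccr2* (5879) and *Ccr1* (55) lay within the range of the other 3. In wt, replicate 3 held the highest *Ly6c2* (92 against 19, 12 and 38) and also the highest *Ccr2* (991) and *Ccr1* (15). The part of these markers in the receptor differences was not tested.

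*Cx3cr1*, the fractalkine receptor and the locus of the sorting reporter, spanned a narrower range than *Ccr1* and *Ccr2*. After Sham, Ly6Chi libraries held 3005, 2626, 4063 and 3802 normalized counts in wt (3374 ± 672) and 3952, 4223, 3579 and 4758 in N2ΔMy (4128 ± 496). After IMQ they held 1652, 1988, 2377 and 2424 in wt (2110 ± 363) and 1990, 1961, 3661 and 3091 in N2ΔMy (2676 ± 841). The IMQ libraries of wt were all below the Sham libraries, while in N2ΔMy replicate 3 after IMQ exceeded replicate 3 after Sham. *Cx3cr1* fell with IMQ to 62.5% in wt (log2 fold change -0.67, SE 0.16, adjusted p 0.0168, limma) and to 64.8% in N2ΔMy (-0.67, SE 0.20, adjusted p 0.0491). Within the first and second series the log2 fold changes were -0.63 and -0.71 in wt and -1.05 and -0.29 in N2ΔMy.

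Markers of dendritic cells, which can express *Cx3cr1*, had a lower summed level after IMQ in these libraries. The sum of 6 such markers lay between 823 and 1483 in wt and 967 and 1687 in N2ΔMy after Sham, and between 270 and 531 in wt and 295 and 410 in N2ΔMy after IMQ. The sort had kept MHC-II- CD115+ cells. *Ccr7*, a marker of mature dendritic cells, was at 0 or 1 in every library, and the part of these cells in the *Cx3cr1* difference was not tested. Both of the *Cx3cr1* calls lay close to the thresholds. In wt the call was lost without Sham replicate 3 (-0.57), Sham replicate 4 (-0.61), IMQ replicate 1 (-0.56) or IMQ replicate 2 (-0.65). In N2ΔMy it was lost without any of the Sham libraries (-0.74 to -0.60) and without IMQ replicates 1 (-0.55), 2 (-0.54) or 4 (-0.76), and kept without IMQ replicate 3 (-0.84). The genotype did not alter the response detectably, with a difference of 0.00031 on the log2 scale (95% interval -0.58 to 0.58) in an interaction test that called 0% of all genes (0 by limma, and 177 at an unadjusted p under 0.05).

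In Ly6Clo cells after IMQ, *Cx3cr1* was at 2378, 2379, 2608 and 3250 normalized counts in wt (2654 ± 412) and at 3978, 3682, 3801 and 3682 in N2ΔMy (3786 ± 140). All N2ΔMy libraries were above all wt libraries, at 1.43 times the mean, with a log2 fold change of 0.52 (SE 0.11, adjusted p 0.0173, limma) that was short of the fold required for a call and reached it without wt replicate 4 (0.63) and within the first series (0.69). Ly6Clo against Ly6Chi cells differed by 0.34 in wt (SE 0.14, adjusted p 0.0947, limma) and 0.55 in N2ΔMy (SE 0.19, adjusted p 0.0501), neither of them called. With the replicate block the adjusted p was 0.00224 and 0.0144 (limma), and both stayed short of the fold required for a call. The N2ΔMy difference was called without N2ΔMy Ly6Chi replicate 3 (0.72) or 4 (0.64) and within the first series (0.95). Every group overlapped with its neighbour in the order of the 6 means, from N2ΔMy Ly6Chi Sham at the top to wt Ly6Chi IMQ at the bottom. Whether the reporter allele changed the counts on *Cx3cr1* was not tested. The sum of the 6 dendritic cell markers lay between 84 and 565 in wt and between 212 and 1677 in N2ΔMy Ly6Clo libraries. Of 5 tested, 0 were called between genotypes (4.78% of all genes), and 3 were called higher in Ly6Clo than in Ly6Chi cells of N2ΔMy (9.01%). Their part in the *Cx3cr1* values was not tested.

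The ratio of *Ccr2* to *Cx3cr1* separated the subsets. Per kilobase, *Ccr2* exceeded *Cx3cr1* in every Ly6Chi library, by 3.04 to 6.30 times. In wt Ly6Clo libraries the ratio was 0.154 ± 0.0852, from 0.0494 to 0.253. In N2ΔMy Ly6Clo libraries it was 1.00 ± 0.146, from 0.795 to 1.14, between the ranges of the other groups.

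*Cxcr4*, the CXCL12 receptor, did not differ detectably between any groups. After Sham, Ly6Chi libraries held 718, 810, 497 and 791 normalized counts in wt (704 ± 144) and 812, 530, 917 and 411 in N2ΔMy (667.5 ± 237). After IMQ they held 516, 520, 682 and 872 in wt (647.5 ± 168) and 1214, 688, 615 and 484 in N2ΔMy (750.2 ± 320.5). In Ly6Clo cells the values were 552, 499, 733 and 1412 in wt (799 ± 421) and 1068, 883, 466 and 489 in N2ΔMy (726.5 ± 297). All groups overlapped with each other, and the largest fitted log2 fold change among the 7 comparisons was 0.21 (95% interval -0.45 to 0.87), in wt Ly6Clo against Ly6Chi cells. In Ly6Clo cells the genotype difference had opposite signs in the 2 library series, 0.89 in the first, with both N2ΔMy libraries higher (adjusted p 0.0182, limma), and -1.09 in the second, with both lower, so that the pooled value was -0.10 (adjusted p 0.927). In Ly6Chi cells after IMQ the series also differed in sign, with 0.82 and -0.50. The difference between the series was not tested.

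*Ccrl2*, the chemerin-binding receptor, lay between 12 and 88 normalized counts in the 24 libraries. Ly6Chi libraries held 24, 56, 51 and 71 in wt and 48, 66, 52 and 36 in N2ΔMy after Sham, with the same mean of 50.5. After IMQ they held 31, 21, 88 and 47 in wt and 31, 12, 79 and 77 in N2ΔMy. Ly6Clo libraries held 20, 27, 66 and 64 in wt and 28, 30, 28 and 61 in N2ΔMy. All groups overlapped, and the log2 fold changes lay between -0.33 (95% interval -1.54 to 0.88) and 0.068 (-0.72 to 0.86), so that differences of the size seen for *Cx3cr1* were not detectable at these counts. In both IMQ groups of Ly6Chi cells and in wt Ly6Clo cells, both libraries of the second series were above both of the first.

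**Figure D4:**
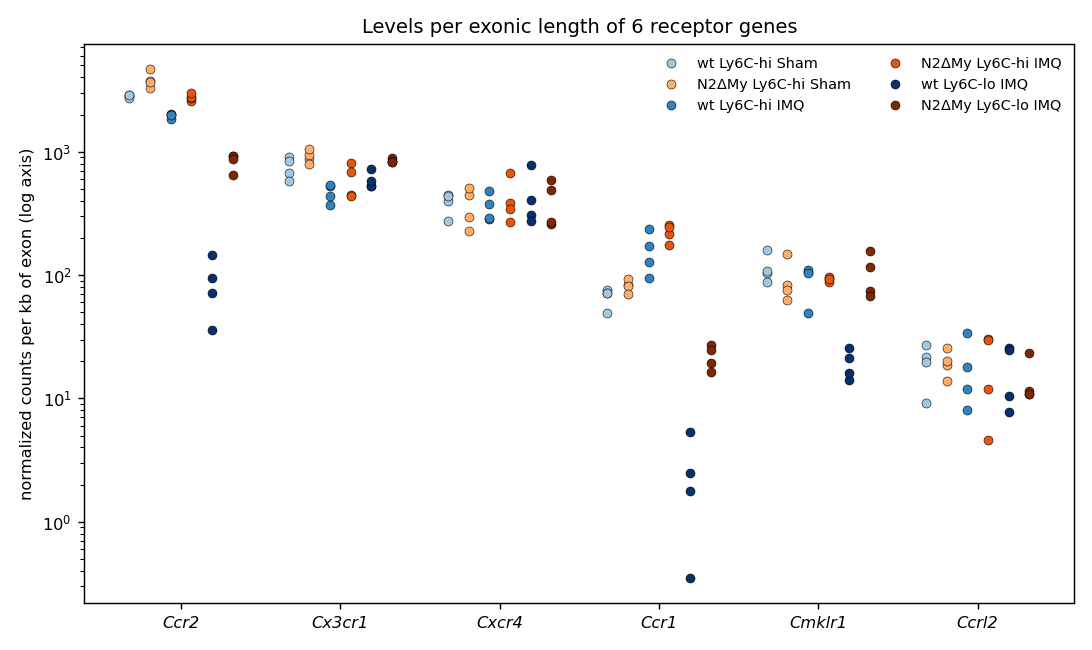
Normalized counts per kilobase of exon (vertical log axis) of the 5 receptor genes and of *Cmklr1* in each library, coloured by group. *Ccr2* is the highest in all Ly6Chi groups and lies below *Cx3cr1* and *Cxcr4* in wt Ly6Clo cells.

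Compared per kilobase, wt Ly6Chi cells after Sham held *Ccr2* at 2836 ± 64.5, *Cx3cr1* at 749 ± 149, *Cxcr4* at 389 ± 79.4, *Ccr1* at 67.1 ± 12 and *Ccrl2* at 19.4 ± 7.5 normalized counts. In wt Ly6Clo cells the order was *Cx3cr1* (589 ± 91.4), *Cxcr4* (442 ± 233), *Ccr2* (87.1 ± 46.5), *Ccrl2* (17 ± 9.3) and *Ccr1* (2.5 ± 2.1). N2ΔMy Ly6Clo cells held nearly equal levels of *Ccr2* (844 ± 133) and *Cx3cr1* (840.3 ± 31.1), followed by *Cxcr4* (402 ± 165), *Ccr1* (21.9 ± 5.0) and *Ccrl2* (14.1 ± 6.2).

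Of 25 chemokine receptors in a list chosen for this comparison, 6 passed the filter on low values, the 5 above and *Cmklr1*. The other 19 reached at most 37 normalized counts (*Ccr3*), and *Ccr4*, *Cxcr1* and *Ackr3* were at 0 in all 24 libraries. *Cmklr1*, a signalling receptor of chemerin, lay between 48 and 88 normalized counts in wt and between 231 and 536 in N2ΔMy Ly6Clo cells, without overlap. Its N2ΔMy mean was 5.37 times the wt mean (log2 fold change 2.36, SE 0.30, adjusted p 0.00121, limma) and it was not called with IMQ. Like *Ccr1* and *Ccr2*, it was lower in Ly6Clo than in Ly6Chi cells of wt mice (-2.21, SE 0.29, adjusted p 1.66e-04, limma), while in N2ΔMy mice it was not called (0.080, SE 0.24, adjusted p 0.846). Counted over these 6 receptors, N2ΔMy against wt Ly6Clo cells gave 3 higher and 0 lower calls against 3.12% and 1.67% of all genes, with a median log2 fold change of 1.44, beside -0.0035 over all genes tested. Ly6Clo against Ly6Chi cells gave 3 lower and 0 higher calls in wt (12.7% and 11.9% of all genes), and 2 lower and 0 higher calls in N2ΔMy (8.38% and 9.01%).

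Ligands of the 5 receptors were measured in the same cells. Of 14 ligand genes, 5 passed the filter, and 4 of them, *Ccl3*, *Ccl6*, *Ccl9* and *Mif*, were called in at least 1 of the 7 comparisons of a pair of groups, against 32.9% of all genes tested. *Ccl9*, a ligand of CCR1, was at 1413 ± 464 normalized counts in wt and 5977 ± 637 in N2ΔMy Ly6Clo cells (log2 fold change 2.13, SE 0.20, adjusted p 2.58e-04, limma). *Ccl6*, also a ligand of CCR1, was at 6849 ± 1459 and 14288.5 ± 1369 in these groups (1.08, SE 0.15, adjusted p 0.00193, limma). Both ligand genes were thus higher in the same comparison as *Ccr1*. Against Ly6Chi cells after IMQ, *Ccl9* was lower in Ly6Clo cells, by -2.40 on the log2 scale in wt (SE 0.23, adjusted p 2.05e-05, limma) and -0.73 in N2ΔMy (SE 0.17, adjusted p 0.00880, limma). *Ccl3* encodes another ligand of CCR1. In wt mice it was higher in Ly6Clo than in Ly6Chi cells, at 76.0 ± 19.3 against 14.8 ± 4.0. Its log2 fold change was 2.29 (SE 0.34, adjusted p 4.15e-04, limma). In this comparison *Ccl3* reached the filter only through Ly6Clo libraries, at 48 to 91 against 9 to 18 in Ly6Chi libraries. Its call, and its place among the 4 called ligand genes, can therefore rest on that filter. *Mif*, whose product can bind CXCR4, was lower in Ly6Clo than in Ly6Chi cells of both genotypes, by -1.34 in wt and -0.88 in N2ΔMy on the log2 scale, and rose with IMQ in N2ΔMy Ly6Chi cells (0.95, SE 0.21, adjusted p 0.0143, limma).

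Genes that act below or beside chemokine receptors were counted in the same comparisons. Of 40 such genes tested, 12 were called higher and 5 lower in Ly6Clo against Ly6Chi cells of wt mice, and 8 higher and 3 lower in those of N2ΔMy mice, beside the 24.6% and 17.4% of all genes given above. Between genotypes in Ly6Clo cells 3 were called higher and 3 lower (4.78% of all genes in both directions), and in Ly6Chi cells 0 were called by limma after IMQ or Sham (0.0267% and 0.0178%). With IMQ in Ly6Chi cells 4 were called higher and 1 lower in wt (9.49%), and 4 higher and 2 lower in N2ΔMy (8.7%). The G protein subunit gene *Gng2* and the RGS gene *Rgs18*, whose product ends G protein signals, were lower in Ly6Clo cells, by -1.85 and -2.10 on the log2 scale in wt and by -1.13 and -0.72 in N2ΔMy. *Adrbk2*, which encodes a kinase that desensitizes receptors, was higher in Ly6Clo cells, by 1.71 in wt and 1.75 in N2ΔMy. Among other migration receptors, *S1pr5*, a sphingosine phosphate receptor of patrolling monocytes, was at 4228 ± 560 in wt and 2144 ± 291 in N2ΔMy Ly6Clo cells (log2 fold change -0.98, SE 0.12, adjusted p 0.00127, limma), opposite in direction to *Ccr1* and *Ccr2*. *S1pr1*, another receptor of this lipid, lay between 17 and 44 in wt and between 61 and 120 in N2ΔMy Ly6Clo cells, and passed the filter of 50 through the latter libraries alone. *Fpr1* and *Fpr2*, receptors of formyl peptides, rose with IMQ in Ly6Chi cells, as *Ccr1* did, by 3.81 and 2.35 on the log2 scale in wt and by 3.94 and 2.46 in N2ΔMy, all 4 called. In the N2ΔMy comparison *Fpr1* reached the filter of 50 only through the IMQ libraries (148 to 363, against 10 to 27 after Sham). *Rgs1*, another RGS gene, lay between 40 and 572 in wt Ly6Clo libraries and between 0 and 16 in wt Ly6Chi libraries after IMQ, and passed the filter through Ly6Clo libraries alone.

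The genes whose log2 values followed each receptor most closely over the 24 libraries were found among 8375 genes with a mean of at least 100, as a description in which groups and library series are shared. *Ccr2* was followed by *Rnd3* (Pearson r 0.986), *Tiam1*, an activator of Rac (0.985), and *Eng*, a co-receptor for TGF-β (0.976). *Ccr1* was followed by *Esyt1*, a tether of endoplasmic reticulum and plasma membrane (0.981), the proteoglycan gene *Vcan* (0.980), which is also among the Ly6Chi markers above, and the mitochondrial carrier gene *Slc25a4* (0.975). Like *Ccr1*, *Vcan* had its lowest mean in wt Ly6Clo cells (104) and its highest in N2ΔMy Ly6Chi cells after IMQ (20801). *Cx3cr1* was followed less closely by *Irf2* (0.882), *Rin2* (0.869) and *Tacc1* (0.863). For *Cxcr4* the closest genes were *Tsc22d3* (0.833) and *Per1* (0.736), both inducible by glucocorticoids, and *Arrdc3* (0.628). *Ccrl2* was followed by *Zfp36* (0.799), which encodes an RNA-destabilizing protein, *Ppp1r15a* (0.762), a gene of the stress response, and the linker histone gene *Hist1h1e* (0.748).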

How the data were processed

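Monocytes were sorted from PB as lineage-negative CD11b+ GFP+ CD115+ MHC-II- cells, either Ly6Chi and CD43- or Ly6Clo, and libraries were made with a stranded total RNA kit for low input and sequenced as 75 bp single reads. The authors aligned the reads to GRCm38.p6 with the GENCODE M17 annotation in an nf-core/rnaseq pipeline (Trim Galore 0.4.4 and STAR 2.5.3a, per the submitters' processing notes) and normalized gene counts with DESeq2. The deposited score of a gene in a library is this normalized count rounded to a whole number. Size factors by the median of ratios, computed again on these values, were 1.0093 to 1.0112, and no test for raw counts was applied. The table also holds the authors' mean per gene and their own fold changes and p-values, which were not used. The counting tool and its strand setting are not given in the sources used here.

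Values were compared as log2(value + 1) with limma 3.58.1 (lmFit, eBayes with trend) in R 4.3.3, on the 8 libraries of 2 groups, the 16 of an interaction or all 24 for the F-test, over the 11230 genes with at least 50 in at least 1 library. Calls needed an adjusted p up to 0.05 with a log2 fold change of 0.6 or more in either direction, or an adjusted p up to 0.01 in the F-test. The fits were tested on simulated data. The 5 genes and the lists of receptors, ligands, signalling genes and markers were chosen with earlier results of these data known. The receptor list held a further gene beside the 25 counted, which is not reported here. The text names the 5 genes in every comparison, other receptors past the filter, ligands called at least once, the 8 signalling genes with the largest called fold change, the 3 genes most like each member, *Notch2* and *Ly6c2*. Replicate numbers came from the sample titles, and deviations from the group means correlated between same-numbered libraries (r across genes from 0.16 to 0.619 over all pairs), so the fit with the number as a block is given where it changed a call. Levels per kilobase used merged exon lengths of the deposited table. Depth was inferred from the rounded values, and precision is given as the SD of 4 libraries, since intervals for counts need raw counts. Alternatives changed the pseudocount, the filter, the scaling, the trend, the block, the library series, the libraries fitted together and single libraries. Python 3.11.15, pandas 2.3.3, scipy 1.17.1 and matplotlib 3.10.9 were used.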

Additional observations from a re-analysis of the deposited data

Results flagged for a closer look

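*Ccrl2* was at 61 normalized counts in replicate 4 of N2ΔMy Ly6Clo cells after IMQ, against 28, 30 and 28 in the other 3. Its gap to the nearest library was 0.939 of the range of the group, above the 95% critical value of Dixon for 4 samples. Of 30 sets of 4 libraries screened (5 genes in 6 groups), this was the only 1 past that value, and chance passes about 1 in 20.

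The genotype effect differed between Ly6Clo and Ly6Chi cells after IMQ for *Ccr2*, by 2.94 on the log2 scale (SE 0.39, adjusted p 6.43e-04, limma interaction), and for *Ccr1*, by 2.74 (SE 0.63, adjusted p 0.0468). The *Ccr1* call was lost in 13 of 16 fits that left out 1 library, with a pseudocount of 10 (1.57, adjusted p 0.0623), with values under 1.1 set to 1.1, with no filter, without the trend and within the second series, and the *Ccr2* call within the second series (2.78, adjusted p 0.238). For *Ccr2*, the N2ΔMy mean was 9.70 times the wt mean in Ly6Clo and 1.41 times in Ly6Chi cells, and for *Ccr1* 8.86 (14.3 without wt Ly6Clo replicate 3) and 1.41 times. All 4 N2ΔMy Ly6Clo libraries were above all wt Ly6Clo libraries for both genes.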

How the results depend on the processing

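Over 50 results of the 5 genes and 1055 alternative fits, 942 kept their direction and side of the threshold, 41 lost a call, 6 gained one and 66 changed sign. In 1 of the 66 was either value called, that of *Cxcr4* in N2ΔMy against wt Ly6Clo cells within the first library series. The replicate block changed no call of the 5 genes. With it, the log2 fold change of *Ccr1* in N2ΔMy against wt Ly6Clo cells stayed 3.30 (limma adjusted p 8.68e-04) and that of *Ccr2* 3.44 (2.28e-06). Fits within a series had 2 libraries per group. The cause of the changes below was not tested.

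With no filter on low values the calls of *Ccr1* (1.17) and *Cx3cr1* (-0.67) after IMQ in wt, *Cx3cr1* (-0.67) after IMQ in N2ΔMy, *Ccr1* between genotypes in Ly6Clo cells (3.30) and the *Ccr1* difference between subsets (2.74) were lost, so that 0 receptors of the list were called with IMQ in wt in place of 2, and 1 in N2ΔMy in place of 2. Without the trend, both *Cx3cr1* calls (-0.67) and the *Ccr1* difference (2.74) were lost, which left 1 receptor called with IMQ in each genotype. Setting values under 1.1 to 1.1 lost the *Cx3cr1* call in N2ΔMy (-0.67), leaving 1 receptor called there, and the *Ccr1* difference (3.07), which a pseudocount of 10 also lost (1.57). Upper-quartile scaling turned the *Cx3cr1* difference between genotypes in the response to IMQ (-0.014).

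Within the first series, calls were gained for *Ccr2* after IMQ in N2ΔMy (-0.65) and for *Cx3cr1* in Ly6Clo against Ly6Chi cells of N2ΔMy (0.95) and between genotypes in Ly6Clo cells (0.69). Signs changed in Ly6Clo against Ly6Chi cells of N2ΔMy for *Cxcr4* (0.087) and *Ccrl2* (0.56), between genotypes in Ly6Clo cells for *Cxcr4* (0.89) and *Ccrl2* (0.31), in the difference between subsets for *Cxcr4* (0.069) and *Ccrl2* (0.69), in the difference between genotypes in the IMQ response for *Ccr2* (-0.14) and *Cx3cr1* (-0.42), and for *Cmklr1* after IMQ in N2ΔMy (-0.21) and between genotypes in Ly6Chi cells after IMQ (-0.19). Within the second series, calls were lost for *Ccr1* after IMQ in wt (1.06) and between genotypes in Ly6Clo cells (3.18), *Cx3cr1* after IMQ in N2ΔMy (-0.29), and the differences between subsets of *Ccr1* (2.71) and *Ccr2* (2.78). Signs changed there after IMQ for *Cxcr4* (0.30 in wt, -0.17 in N2ΔMy) and *Ccrl2* (0.095 and 0.83), in Ly6Clo against Ly6Chi cells for *Ccrl2* in wt (0.014) and *Cmklr1* in N2ΔMy (-0.35), between genotypes in Ly6Chi cells for *Cxcr4* after IMQ (-0.50) and *Ccrl2* after IMQ (0.27) and Sham (-0.47), in the difference between subsets for *Cx3cr1* (-0.13), and in that between genotypes in the IMQ response for *Cxcr4* (-0.47) and *Ccrl2* (0.74).

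Leaving out 1 library at a time, *Cx3cr1* ranged from -0.78 to -0.56 after IMQ in wt, from -0.84 to -0.54 in N2ΔMy, from 0.42 to 0.72 in Ly6Clo against Ly6Chi cells of N2ΔMy, from 0.48 to 0.63 between genotypes in Ly6Clo cells and from -0.17 to 0.13 in the difference between genotypes in the IMQ response, and its F-test adjusted p from 4.76e-04 to 0.0115. The *Ccr1* difference between subsets ranged from 2.19 to 3.19. *Cxcr4* ranged from -0.11 to 0.34 after IMQ in N2ΔMy, from -0.11 to 0.39 in wt and -0.27 to 0.21 in N2ΔMy Ly6Clo against Ly6Chi cells, from -0.32 to 0.21 between genotypes in Ly6Clo cells, from -0.10 to 0.34 and -0.30 to 0.085 in Ly6Chi cells after IMQ and Sham, and from -0.48 to 0.055 in the difference between subsets. *Ccrl2* ranged in the same order from -0.66 to 0.21, -0.36 to 0.31, -0.71 to 0.16, -0.48 to 0.082, -0.38 to 0.49, -0.25 to 0.26 and -0.66 to 0.22, from -0.57 to 0.10 after IMQ in wt and from -0.45 to 0.42 in the difference between genotypes in the IMQ response. *Cmklr1* ranged from -0.072 to 0.34 after IMQ in N2ΔMy, from -0.15 to 0.25 in Ly6Clo against Ly6Chi cells of N2ΔMy and from -0.21 to 0.18 between genotypes in Ly6Chi cells after IMQ.

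Of all genes, 1066 were called after IMQ in wt and 592 within the second series. Between genotypes in Ly6Clo cells 537 were called, 215 with no filter, 939 with the block, 830 with the library series as a covariate and 180 within the second series. In Ly6Chi cells after IMQ the 3 calls became 8 with no filter, 0 without the trend, 29 with the covariate, 54 with the block, 15 in 1 fit of all 24 libraries and 2 and 1 within the series. They became 0 by limma in 6 of the 8 fits that left out 1 library (492 to 725 genes at an unadjusted p under 0.05), 1 without wt replicate 4 and 4 without N2ΔMy replicate 1. After Sham the 2 calls became 7 with no filter and 3 with the block, and 1 in 7 of the 8 fits that left out 1 library, without the trend, with either rescaling, with values under 1.1 set to 1.1 and within each series. The difference between subsets gave 116, and 271 with the block, 210 with the covariate, 18 within the second series and 75 without wt Ly6Chi replicate 2. Values near 0 limit *Ccr1* in wt Ly6Clo cells and *Ccrl2* throughout.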
